A study of Mus musculus with 88 samples.

Results

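The genes described here encode parts of the Polycomb machinery and 1 of the enzymes that acts against it. Ezh2, Ezh1, Eed, Suz12, Jarid2, Mtf2, Ring1, Rnf2, Pcgf6 and Kdm6b were taken by symbol from both deposited tables of transcript abundance. All 10 were found, among 55364 genes, and each was read in 25 libraries, of which 19 came from mouse embryonic stem (ES) cells and 6 from late 2-cell embryos.

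Polycomb proteins keep developmental genes silent. Polycomb repressive complex 2 (PRC2) writes a repressive methyl mark on histone H3 through its catalytic subunit EZH2 or EZH1, held by the scaffold subunits EED and SUZ12 and steered to CpG-rich DNA by accessory proteins such as JARID2 and MTF2. Polycomb repressive complex 1 (PRC1) attaches ubiquitin to histone H2A through RING1 or RNF2 (also called RING1B), and PCGF6 belongs to a variant form of it, while KDM6B removes the PRC2 mark. ES cells depend on these complexes to hold lineage genes off, and in the early embryo PRC2 marks inherited from the oocyte carry a form of imprinting.

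The series covers 88 samples on Obox genes, which encode homeodomain proteins of the oocyte and early embryo, and 63 of them were not analysed here. All libraries used here are labelled wild-type, and total RNA was made into stranded libraries. The ES cells were male, of a C57BL/6 and 129 hybrid background, grown in serum and LIF plus the kinase inhibitors PD0325901 and CHIR99021, and transfected by lipofection. An empty plasmid (ES_Empty) and those for Dux, Obox3, Obox5 and Obox6 had 2 libraries each, and the last 4 groups are called ES_Dux, ES_Obox3, ES_Obox5 and ES_Obox6. A further 9 plasmids had 1 library each: Obox1, Obox2, Obox4ps27, Obox4ps35, Obox7, Obox8 and 3 Crxos constructs. The embryos were of the BDF1 strain. Embryos made by sperm injection (ICSI_L2C) were set against embryos from somatic cell nuclear transfer (SCNT), with cumulus nuclei placed in enucleated oocytes and then injected with 10 ng/µl of mRNA for EGFP (SCNT_EGFP_L2C) or Obox3 (SCNT_Obox3_L2C), with 2 libraries in each group. The labels give no selection of transfected cells and no time after transfection for these libraries, and in bulk RNA fewer cells of a type and less RNA per cell cannot be told apart.

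The sequences just before the start of transcription are shown for the members whose levels moved most closely together across ES libraries (Suz12 and Jarid2) and for the paralogues whose levels lay far apart (Rnf2 and Ring1). RefSeq on GRCm38.p6 held such a window for 9 of the 10 genes, in 11 entries. The 250 bases before the start are printed 5′ to 3′ along the gene's strand, with every CpG dinucleotide in capitals. The windows are chr11:79992856-79993105 (+) for Suz12, chr13:44730524-44730773 (+) for Jarid2, chr1:151500992-151501241 (-) for Rnf2 and chr17:34024681-34024930 (-) for Ring1.
Suz12: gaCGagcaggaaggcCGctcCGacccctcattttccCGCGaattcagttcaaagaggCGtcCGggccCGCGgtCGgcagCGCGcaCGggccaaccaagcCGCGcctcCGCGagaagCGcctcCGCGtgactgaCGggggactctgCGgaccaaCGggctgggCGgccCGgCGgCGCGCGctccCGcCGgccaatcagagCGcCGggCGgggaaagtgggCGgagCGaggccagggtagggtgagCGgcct
Jarid2: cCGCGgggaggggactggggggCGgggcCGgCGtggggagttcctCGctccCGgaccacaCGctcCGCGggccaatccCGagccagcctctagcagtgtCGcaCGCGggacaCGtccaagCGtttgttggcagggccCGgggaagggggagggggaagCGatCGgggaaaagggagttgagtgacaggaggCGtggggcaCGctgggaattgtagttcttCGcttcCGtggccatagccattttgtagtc
Rnf2: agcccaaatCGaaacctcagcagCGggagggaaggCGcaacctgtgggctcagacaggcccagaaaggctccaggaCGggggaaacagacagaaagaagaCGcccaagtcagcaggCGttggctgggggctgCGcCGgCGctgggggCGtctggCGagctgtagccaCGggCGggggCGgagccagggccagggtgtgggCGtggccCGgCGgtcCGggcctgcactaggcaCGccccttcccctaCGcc
Ring1: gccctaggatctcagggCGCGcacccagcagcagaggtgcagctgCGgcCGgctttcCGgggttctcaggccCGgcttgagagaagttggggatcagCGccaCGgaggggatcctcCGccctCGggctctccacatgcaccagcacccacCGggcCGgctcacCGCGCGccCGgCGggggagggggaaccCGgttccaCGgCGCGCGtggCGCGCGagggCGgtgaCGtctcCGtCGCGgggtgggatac

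These windows held 37, 23, 20 and 30 CpG dinucleotides, against a median of 6 over the 32841 windows of the same length, and 73.6%, 67.2%, 70.4% and 73.6% of their bases were G or C. Over the 11 windows of the members the number of CpG ran from 2, at an inner start of Mtf2, to 37. Both the Ring1 window and the Rnf2 window are CpG-rich, although their transcripts differed in level by more than an order of magnitude in embryos. The letters TTTCCCGC, an E2F motif, stood in the Suz12 window 219 bases before the start and in 0.895% of all windows. On either strand, none of the members' windows held GGATTA (a motif of homeodomain proteins of the Otx and Crx kind, in 6.25% of all windows), a Dux motif (TGATT, any 2 bases and ATCA, 0.177%), the E2F motif TTTGGCGC (0.417%), the E-box CACGTG (6.02%) or the YY1 motif CCATCTTG (1.26%). With 1 match in all, no matches overlapped, and a match describes the letters alone.

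In RefSeq on GRCm38.p6 the members lie apart, on 8 chromosomes, and all are protein coding. Suz12 (chr11:79993106-80034123), Kdm6b (chr11:69398508-69420367) and Ezh1 (chr11:101191115-101226463) share chromosome 11. The others are Ezh2 (chr6:47530274-47595270), Eed (chr7:89954654-89980976), Jarid2 (chr13:44730774-44921643), Mtf2 (chr5:108065660-108109219), Ring1 (chr17:34020792-34024680), Rnf2 (chr1:151469398-151500991) and Pcgf6 (chr19:47033617-47050939). Ezh2 overlaps the noncoding gene F830010H11Rik and Kdm6b overlaps Gm51903, so part of their reads may belong to these.

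Values are TPM, reads corrected for gene length and for the library's total. Differences are of log2(TPM + 1), given with the standard error (SE) and adjusted p of limma, fitted over 20355 genes in ES cells and 18252 in embryos. The added 1 shrinks the changes of genes near or below 1 TPM. Shares and medians over all genes were not matched to the members in level. Calls required an adjusted p below 0.05 and a change of 1 or more, in either direction, on the log2 scale. TPM sum to a constant, and the 10 most abundant genes took 48.9 to 73.8% of it in ES libraries and 57.4 to 72.6% in embryo libraries. Over all genes the median stood at -0.97 in ES_Dux, -0.42 in ES_Obox3, -0.20 in ES_Obox5 and -0.09 in ES_Obox6 against ES_Empty. It stood at -0.20 in SCNT_EGFP_L2C and -0.22 in SCNT_Obox3_L2C against ICSI_L2C, and at -0.03 between the SCNT groups. The comparisons are given as deposited and after median-ratio scaling, which brings the median gene of each library to a common level. The transfected genes reached 1548 and 1979 TPM for Duxf3 in the ES_Dux libraries, 971 and 933 TPM for Obox5 and 2031 and 1959 TPM for Obox6. Obox3 itself was listed at only 1.75 and 1.59 TPM in ES_Obox3, where its near-identical copy Obox3-ps5, looked up once its values were known, was at 451 and 263 TPM. The 6 ES markers Pou5f1, Sox2, Nanog, Esrrb, Zfp42 and Tdgf1 were all above 1 TPM in every ES group, and summed to 1009 to 1189 TPM in ES_Empty.

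In ES cells with the empty plasmid, PRC2 was represented by abundant scaffold and accessory transcripts and fewer catalytic ones. Eed stood at 61.0 and 53.0 TPM in ES_Empty replicates 1 and 2, Suz12 at 60.5 and 50.5, Mtf2 at 60.2 and 50.3, and Jarid2 at 54.9 and 52.6. The methyltransferase Ezh2 stood at 25.8 and 21.3 TPM and its paralogue Ezh1 at 3.32 and 3.69. For the ubiquitin ligases of PRC1, Rnf2 stood at 21.4 and 20.0 TPM and Ring1 at 1.74 and 1.90. Pcgf6 was at 9.62 and 7.67 TPM, and the demethylase Kdm6b at 19.8 and 16.9. In order of level, Eed, Suz12, Mtf2 and Jarid2 overlapped with each other, Ezh2 overlapped Rnf2 by a small margin, and Kdm6b, Pcgf6, Ezh1 and Ring1 followed without overlap.

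The 9 single-plasmid libraries give the spread of these genes among transfected cultures, with no test. Suz12 ran from 39.3 to 61.0 TPM with a median of 57.9, Eed from 40.9 to 60.7 (median 55.1), Jarid2 from 38.3 to 54.7 (median 51.5) and Rnf2 from 15.7 to 22.2 (median 20.7). Obox4ps35 was the lowest of the 9 for these 4 genes and for Kdm6b, which ran from 15.7 to 20.9 TPM. Obox8 stood apart in several members. It was highest for Ezh2 (25.5 TPM), Ezh1 (4.99), Rnf2, Ring1 (2.97) and Pcgf6, at 15.4 TPM against a median of 8.84 over the 9, and lowest for Mtf2, at 37.5 TPM against a median of 51.2. Mtf2 was highest with Obox4ps27, at 72.2 TPM.

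**Figure D1:**
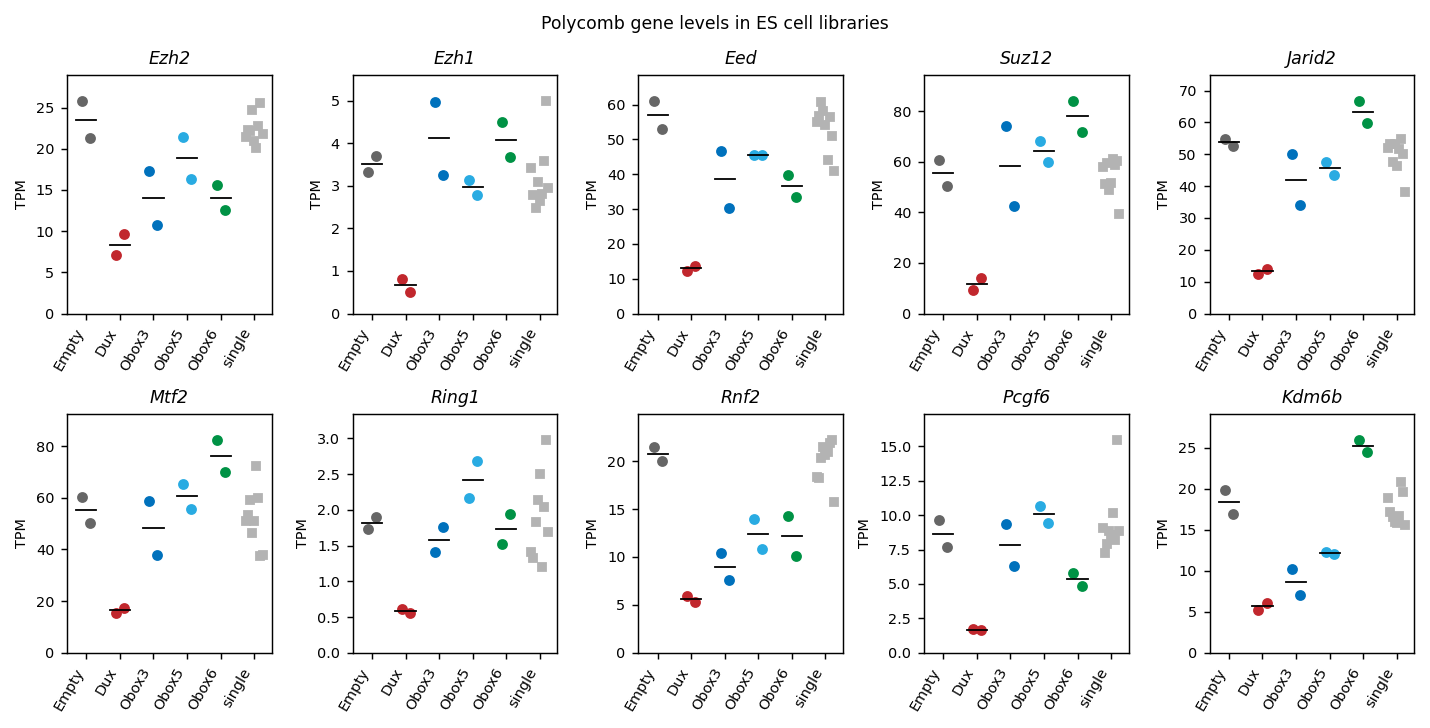
TPM of the 10 Polycomb genes in each ES library, 1 panel a gene, with each vertical axis starting at 0. Circles are the libraries of the replicated groups with their mean as a line, and squares are the 9 libraries with 1 plasmid each. The ES_Dux libraries are the lowest in all panels, and the ES_Obox6 means are the highest of the replicated groups for Suz12, Mtf2, Jarid2 and Kdm6b.

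Dux is a transcription factor that activates the genes of the 2-cell stage, and its plasmid was set against the empty one. As deposited, all 10 Polycomb genes were lower in both ES_Dux libraries than in either ES_Empty library, and 9 of 10 were called lower. That share has to be read against the 44.4% of all genes that were called lower and the 72.9% that were lower without overlap. The scaffold gene Suz12 was at 9.45 and 14.2 TPM in ES_Dux (log2 fold change -2.16, SE 0.289, adjusted p = 0.000452) and Eed at 12.1 and 13.8 TPM (-2.06, SE 0.225). Neither gene came near its ES_Empty levels. For the accessory genes, Jarid2 was at 12.5 and 14.0 TPM (-1.95, SE 0.208) and Mtf2 at 15.6 and 17.4 TPM (-1.68, SE 0.236). Ezh2 was at 7.08 and 9.65 TPM (-1.40, SE 0.268) and Ezh1 at 0.816 and 0.511 TPM (-1.44, SE 0.223). In PRC1, Pcgf6 was at 1.74 and 1.63 TPM (-1.84, SE 0.217) and Rnf2 at 5.92 and 5.33 TPM (-1.71, SE 0.229). Ring1, at 0.610 and 0.555 TPM, was not called (-0.83, SE 0.202, adjusted p = 0.00637) because its difference of log2(TPM + 1) stayed under the minimum. At such levels the added 1 shrinks the difference, for Ring1 (means of 0.582 against 1.82 TPM) and for Ezh1 (0.664 against 3.51). Kdm6b was at 5.28 and 6.09 TPM (-1.53, SE 0.201).

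After scaling, none of the 10 was called in ES_Dux, where 2.30% of all genes were called lower. Limma as deposited gave all 10 an unadjusted p below 0.05. By adjusted p alone, 6 of the 10 were lower after scaling, against 10.6% of all genes. They were Suz12 (-0.81, SE 0.155, adjusted p = 0.0104), Pcgf6 (-0.75, SE 0.0965, adjusted p = 0.00198), Eed (-0.69, SE 0.0775, adjusted p = 0.00108), Ezh1 (-0.63, adjusted p = 0.0371), Jarid2 (-0.58, adjusted p = 0.00209) and Mtf2 (-0.31, adjusted p = 0.0240). Ezh2 and Ring1 lay closest to the median gene, at -0.08 and -0.12, and Rnf2 and Kdm6b stood at -0.43 and -0.25. The value of Ring1 is shrunk by its low level. The median of the 10 was -1.70 as deposited and -0.50 after scaling, against -0.97 and -0.06 for all genes, which include many shrunk values near the level filter. The summed ES markers were at 334 to 360 TPM in ES_Dux. The 6 markers of the 2-cell state summed to 3458 to 4106 TPM, against 0.478 to 1.77 in ES_Empty. These 6 include Duxf3, the transfected gene itself, which alone stood at 1548 and 1979 TPM in ES_Dux. The part of a change of cell state in the Polycomb levels was not tested.

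ES_Obox3 was compared with ES_Empty to ask what Obox3 changes in stem cells. Of the 10 members, Rnf2 and Kdm6b were called lower, against 13.6% of all genes. Rnf2, the main H2A ubiquitin ligase of ES cells, was at 10.4 and 7.59 TPM (-1.13, SE 0.229, adjusted p = 0.00789). Kdm6b was at 10.2 and 7.02 TPM (-1.03, SE 0.201, adjusted p = 0.00691). Both genes were below both ES_Empty libraries. Both calls were lost after scaling, at -0.53 and -0.43, without the unnumbered ES_Obox3 library and without ES_Empty replicate 1, where 0 members were called, although the direction of both genes stayed.

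The remaining members depended on the scale of the table. Suz12 was at 74.1 and 42.6 TPM in ES_Obox3 (0.02, SE 0.289), a range that covers both ES_Empty libraries. Ezh1 was at 4.97 and 3.26 TPM (0.16, SE 0.223), Mtf2 at 58.9 and 38.0 (-0.21), Pcgf6 at 9.32 and 6.32 (-0.14) and Ring1 at 1.41 and 1.76 (-0.13), all overlapping ES_Empty. Ezh2 (17.3 and 10.7 TPM, -0.74), Eed (46.7 and 30.4, -0.58) and Jarid2 (50.0 and 34.0, -0.37) were below ES_Empty without overlap but were not called. With Rnf2 and Kdm6b, 5 of the 10 lay there, as did 48.7% of all genes. The unnumbered library was the lower one for 9 of the 10 genes, and its 10 most abundant genes took 73.8% of the TPM against 64.3% in the other. After scaling, 7 members passed by adjusted p alone, with 5 higher, against 14.4% of all genes, and 2 lower, against 10.2%. Those higher were Suz12 (0.65, SE 0.155, adjusted p = 0.0213), Ezh1 (0.64, adjusted p = 0.0323), Pcgf6 (0.42, adjusted p = 0.0185), Mtf2 (0.41, adjusted p = 0.00654) and Jarid2 (0.25, adjusted p = 0.0491). Mtf2, Pcgf6 and Jarid2 thereby changed sign between the 2 scales, as did Eed (0.04) and Ring1 (0.27), which passed on neither. Those lower were Rnf2 (adjusted p = 0.0268) and Kdm6b (adjusted p = 0.00803). The median of the 10 was -0.29 as deposited and 0.26 after scaling, against -0.42 and 0.00 for all genes. The ES markers summed to 376 to 523 TPM in ES_Obox3, and their part in these differences was not tested.

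With Obox5, none of the 10 members was called by limma, where 10.3% of all genes were, and 2 had an unadjusted p below 0.05. These were Rnf2 at 14.0 and 10.8 TPM (-0.71, SE 0.229, adjusted p = 0.0738) and Kdm6b at 12.3 and 12.1 TPM (-0.55, SE 0.201, adjusted p = 0.103). Neither overlapped ES_Empty. Ring1 was the only member above ES_Empty without overlap, at 2.16 and 2.68 TPM (0.28, SE 0.202), with 18.2% of all genes in that position. Suz12 (68.3 and 59.8 TPM), Mtf2 (65.5 and 55.8), Ezh2 (21.4 and 16.3) and Pcgf6 (10.6 and 9.46) overlapped ES_Empty. Eed (45.5 and 45.7), Jarid2 (47.6 and 43.5) and Ezh1 (3.14 and 2.78) lay below it, which with Rnf2 and Kdm6b made 5 members, where 41.9% of all genes did. After scaling, Pcgf6 (0.48, adjusted p = 0.0135) and Mtf2 (0.45, adjusted p = 0.00612) passed by adjusted p alone as higher, against 11.3% of all genes. The median of the 10 was -0.21 as deposited and 0.07 after scaling, against -0.20 and 0.02 for all genes, and the ES markers summed to 517 to 524 TPM.

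Obox6 gave a different pattern of values. As deposited none of the members was called, where 4.38% of all genes were, and 4 had an unadjusted p below 0.05 in limma, all lower. Suz12 was at 84.0 and 71.8 TPM (0.48, SE 0.289), Mtf2 at 82.2 and 69.9 (0.45, SE 0.236), Jarid2 at 66.7 and 59.8 (0.23, SE 0.208) and Kdm6b at 25.9 and 24.5 (0.44, SE 0.201). These 4 were above both ES_Empty libraries, as were 18.9% of all genes. Eed (39.7 and 33.5 TPM, -0.63), Ezh2 (15.6 and 12.6, -0.70), Rnf2 (14.2 and 10.1, -0.74) and Pcgf6 (5.82 and 4.83, -0.61) were below both, as were 32.9% of all genes. Ezh1 (4.49 and 3.67) and Ring1 (1.53 and 1.94) overlapped ES_Empty.

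After scaling, 4 members passed by adjusted p alone as higher in ES_Obox6, against 6.20% of all genes, and 1 as lower, against 3.47%. The higher ones were Suz12 (0.73, SE 0.155, adjusted p = 0.0297), Mtf2 (0.70, SE 0.0744, adjusted p = 0.00184), Kdm6b (0.67, SE 0.0820, adjusted p = 0.00324) and Jarid2 (0.47, SE 0.0760, adjusted p = 0.00955), and the lower one was Eed (-0.38, SE 0.0775, adjusted p = 0.0249). The subunits of PRC2 thus differed in direction in the same libraries. The median of the 10 was 0.06 as deposited and 0.22 after scaling, against -0.09 and 0.05 for all genes. The ES markers summed to 550.2 to 675 TPM in ES_Obox6. The 5 trophoblast markers, with 3 of them at 1 TPM or more and Cdx2 listed at 0, summed to 67.2 to 95.8 TPM there, against 16.8 to 20.3 in ES_Empty, 8.38 to 12.1 in ES_Dux, 36.5 to 36.8 in ES_Obox3 and 36.0 to 44.9 in ES_Obox5. Their part in the members' values was not tested. Nothing in the labels ties replicates to separate cultures or embryo collections, so every p measures only the spread between these libraries, which may be technical.

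**Figure D2:**
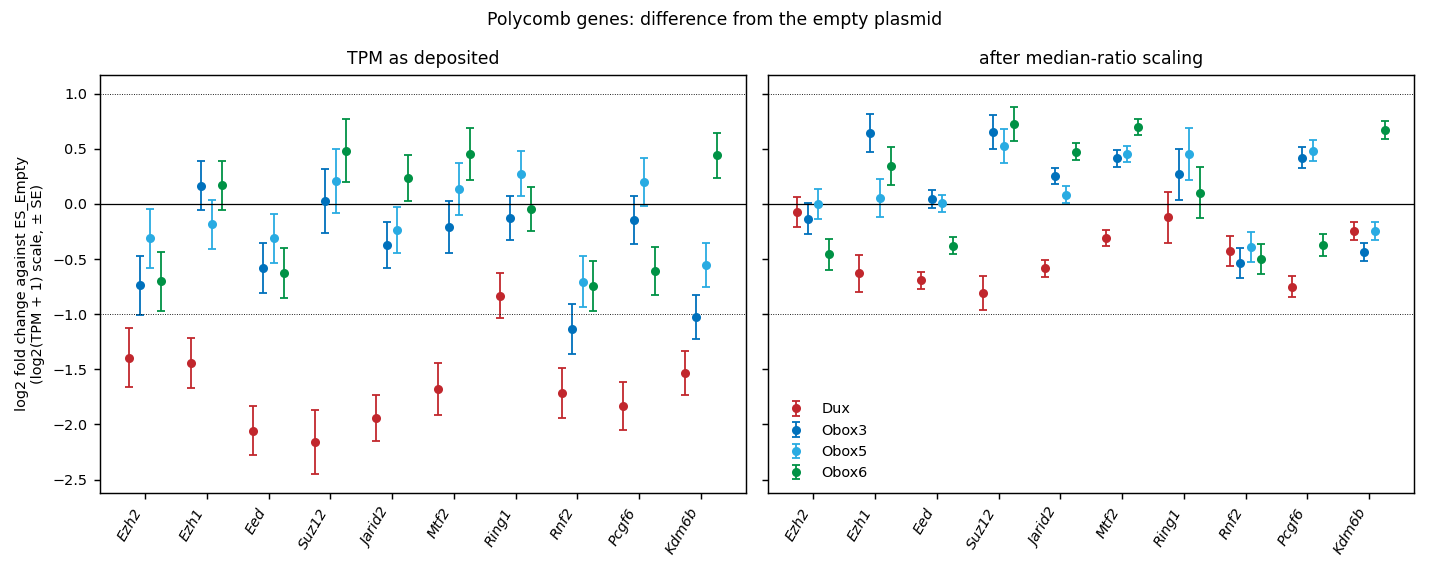
Log2 fold change of each Polycomb gene against ES_Empty (points, with bars of ± SE from limma) for the Dux, Obox3, Obox5 and Obox6 plasmids, from TPM as deposited (left) and after median-ratio scaling (right), with dotted lines at 1 and -1. Dux lies between -2.16 and -0.83 on the left and between -0.81 and -0.08 on the right, and all 4 comparisons share the same 2 ES_Empty libraries.

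The 4 comparisons share their controls, so factors were also set against each other directly. In ES_Obox3 against ES_Dux, 6 members were called higher, where 20.3% of all genes were. They were Suz12 (2.18, SE 0.289, adjusted p = 0.000681), Pcgf6 (1.69, SE 0.217), Ezh1 (1.61, SE 0.223), Jarid2 (1.57, SE 0.208), Eed (1.47, SE 0.225) and Mtf2 (1.47, SE 0.236). After scaling, Suz12 (1.46, SE 0.155, adjusted p = 0.000409), Ezh1 (1.27, SE 0.171, adjusted p = 0.0012) and Pcgf6 (1.17, SE 0.0965, adjusted p = 0.000125) were still called, against 9.47% of all genes. Ring1 was not called on either scale, at 0.70 and 0.39. Ezh2, Rnf2 and Kdm6b stood at 0.66, 0.58 and 0.51 as deposited and at -0.06, -0.11 and -0.19 after scaling. A direct contrast of ES_Obox6 with ES_Obox3 was added after the data were seen. Kdm6b was its only member called, at 25.9 and 24.5 TPM against 10.2 and 7.02 (1.47, SE 0.201, adjusted p = 0.00353), where 6.61% of all genes were called higher, and it was called after scaling too (1.10, SE 0.0820, adjusted p = 0.000287, against 3.20%). Kdm6bos, named as the opposite strand of Kdm6b, was at 10.5 and 7.23 TPM in ES_Obox6, 4.04 and 1.94 in ES_Obox3 and 8.47 and 9.52 in ES_Empty. It was not among the RefSeq genes found to overlap Kdm6b. The strand setting of the counting is not given in the sources used here, so whether reads of this pair are mixed is not known.

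Ratios of members within a library do not depend on how the libraries were scaled, and with 2 libraries against 2 an exact permutation test cannot go below p = 0.333, so they are given as values. Suz12 was near parity with Eed in ES_Empty, with ratios of 0.992 and 0.953, and ran from 0.839 to 1.39 over the 9 single-plasmid libraries. It was 1.59 and 1.40 times Eed in ES_Obox3, 1.5 and 1.31 times in ES_Obox5, and 2.12 and 2.14 times in ES_Obox6, the highest of the 19 ES libraries. ES_Dux lay at 0.779 and 1.03. Against Ezh2, Suz12 stood at 1.33 to 1.47 in ES_Dux, 2.35 to 2.38 in ES_Empty, 3.19 to 3.67 in ES_Obox5, 3.97 to 4.28 in ES_Obox3 and 5.40 to 5.70 in ES_Obox6, with no overlap between these groups.

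The ratio of the catalytic paralogues differed between groups as well. Ezh2 was 7.76 and 5.76 times Ezh1 in ES_Empty, 3.29 to 3.48 times in ES_Obox3 and 3.43 to 3.47 times in ES_Obox6, below all other ES libraries. In ES_Dux the ratio was 8.68 and 18.9, the second value resting on an Ezh1 level of 0.511 TPM. In PRC1, Rnf2 was 2.23 to 2.61 times Pcgf6 in ES_Empty, 1.12 to 1.20 times in ES_Obox3, 1.14 to 1.32 times in ES_Obox5 and 3.27 to 3.40 times in ES_Dux. For writer against eraser, Ezh2 was 0.514 and 0.600 times Kdm6b in ES_Obox6, while the other ES libraries lay between 1.09 and 1.74.

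Among the other Polycomb genes, a list of 39 of which 34 were tested in ES cells, several were called with the Obox plasmids. The median of those tested in ES_Obox3 was -0.52 as deposited and 0.01 after scaling, against -0.42 and 0.00 for all genes. In ES_Obox3, 2 were called higher (against 4.67% of all genes) and 9 lower (13.6%), and after scaling 6 higher (7.74%) and 4 lower (3.76%). Kdm2b, which binds unmethylated CpG and recruits variant PRC1, rose from 20.2 ± 3.35 to 44.6 ± 8.74 TPM (SD, n = 2; 1.10, SE 0.197, adjusted p = 0.00472). Lcor, which shares its locus with a PRC2 accessory protein, rose from 6.17 ± 0.113 to 16.0 ± 3.79 TPM (1.23, SE 0.215). Epop, a PRC2 accessory protein of ES cells, fell from 194 ± 21.4 to 43.0 ± 9.90 TPM (-2.16, SE 0.215, adjusted p = 0.000352), and Pcgf2, a subunit of canonical PRC1, fell from 13.7 ± 1.29 to 2.50 ± 0.875 TPM (-2.09, SE 0.210). Cbx2, a chromodomain subunit of canonical PRC1, fell from 6.01 ± 0.328 to 1.07 ± 0.195 TPM (-1.76, SE 0.241), and Bcor, a partner of PCGF1, fell from 7.33 ± 0.420 to 1.81 ± 0.458 TPM (-1.58, SE 0.181). All 6 kept their calls after scaling.

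In ES_Obox5, Kdm2b rose to 47.9 ± 0.0175 TPM (1.21, SE 0.197, adjusted p = 0.00506) and Bcorl1 from 1.49 ± 0.341 to 5.14 ± 1.07 TPM (1.30, SE 0.218). Pcgf2 fell to 3.91 ± 0.00518 TPM (-1.58, SE 0.210), Epop to 67.1 ± 12.1 TPM (-1.52, SE 0.215), Cbx2 by 1.16 and Rybp by 1.06. These are all the calls of the list, 2 higher (4.79% of all genes) and 4 lower (5.47%), and those of Cbx2 and Rybp were lost after scaling. In ES_Obox6, Auts2 (1.46, SE 0.206, adjusted p = 0.00528) and Bcorl1 (1.15, SE 0.218) rose and Phc1 fell (-1.04, SE 0.202), against 2.39% and 1.99% of all genes, and Phc1 was not called after scaling. In ES_Dux, 23 of the 34 were called lower as deposited (44.4% of all genes), led by Mga (-2.47), Cbx7 (-2.17), Asxl2 (-2.01) and Cbx6 (-1.98), and 1 after scaling (2.30% of all genes), the variant PRC1 subunit Mga (-1.16). For the whole list the median was -1.27 in ES_Dux, -0.24 in ES_Obox5 and -0.14 in ES_Obox6, against -0.97, -0.20 and -0.09 for all genes. In ES_Obox3 against ES_Dux, 15 were called higher (20.3% of all genes) and 8 after scaling (9.47%), led by Kdm2b (3.05, SE 0.197), Lcor (2.97, SE 0.215), Usp16 (1.95, SE 0.239) and L3mbtl2 (1.78, SE 0.202), and all 4 were called after scaling, while Pcgf2 was the 1 called lower (-1.17, SE 0.210; 3.42% of all genes).

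**Figure D3:**
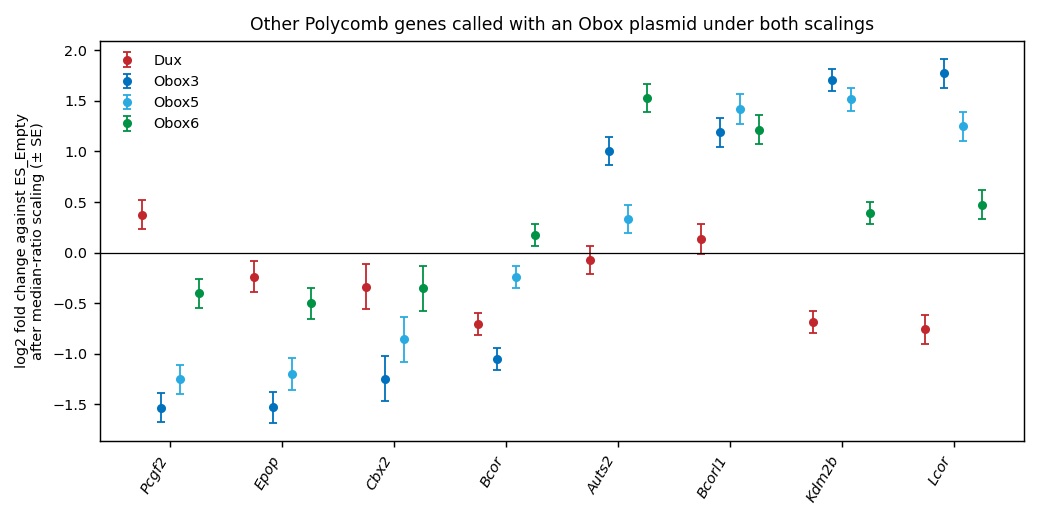
Log2 fold change against ES_Empty after median-ratio scaling (points, with bars of ± SE from limma) for the 8 other Polycomb genes that were called with an Obox plasmid both as deposited and after scaling, ordered by their value with Obox3. Pcgf2, Epop, Cbx2 and Bcor lie lowest with Obox3, at -1.53, -1.53, -1.25 and -1.06, and Kdm2b and Lcor highest, at 1.71 and 1.77.

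Genes usually cited as Polycomb targets were mostly off in these cells, with 10 of a list of 36 tested. Gata4, which specifies endoderm and heart, rose with all 3 replicated Obox plasmids, from 0.435 ± 0.128 TPM in ES_Empty to 19.9 ± 7.27 with Obox3, 19.7 ± 0.838 with Obox5 and 4.44 ± 0.701 with Obox6. Foxa1, of foregut endoderm, rose from 0.142 ± 0.0270 to 3.02 ± 0.408, 3.56 ± 1.72 and 3.97 ± 0.0440 TPM. Gata6 rose by log2 fold changes of 1.02, 1.08 and 1.98. These 3 genes were called after scaling too, in comparisons that share the ES_Empty libraries. Of all genes, 4.67%, 4.79% and 2.39% were called higher with Obox3, Obox5 and Obox6 as deposited, and 7.74%, 6.16% and 3.28% after scaling. They were below 1 TPM in ES_Empty and ES_Dux and passed the level filter only through the Obox groups, so that a call as higher follows in part from the filter. Hoxc13, Sox1 and Olig2 fell in ES_Obox3, by 1.63, 1.5 and 1.26, where 13.6% of all genes were called lower. Olig2 was not called after scaling, where 3.76% of all genes were called lower. In ES_Dux, Hoxc13, Sox1 and Olig2 were called lower as well, 3 of the 10 against 44.4% of all genes, and none of them after scaling (2.30% of all genes). Sox1 in turn passed the filter only through ES_Empty, and Olig2 through ES_Empty and 1 library of ES_Obox6. Both Gata4 and Gata6 are also markers of primitive endoderm. The 4 markers of that lineage summed to 15.9 to 26.6 TPM in ES_Obox3, 20.6 to 22.1 in ES_Obox5 and 7.45 to 8.77 in ES_Obox6, against 0.507 to 0.955 in ES_Empty and 0.658 to 0.776 in ES_Dux. Their part in the members' values was not tested. The other targets did not pass the level filter, and no median over those that did is given.

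In late 2-cell embryos the members were expressed in other proportions. Suz12 was the most abundant by far, at 355 and 526 TPM in ICSI_L2C replicates 1 and 2, 304 and 464 in SCNT_EGFP_L2C and 381 and 459 in SCNT_Obox3_L2C, which overlap. Its partner Eed stood at 42.7 and 51.1, 24.4 and 30.2, and 26.4 and 32.7 TPM in the same order, with both SCNT groups below ICSI_L2C. Rnf2 stood at 84.7 and 133, 73.1 and 113, and 81.7 and 105 TPM, again overlapping. For both Suz12 and Rnf2 the libraries of a group lay further apart than the group means did. Ring1 was barely detected, at 0.333 and 0.305, 0.160 and 0.422, and 0.111 and 0.352 TPM. It did not pass the level filter and was not tested, and 1 read on a gene of 1 kb was worth 0.0718 to 0.198 TPM in these libraries.

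Ezh2 was at 59.0 and 68.4 TPM in ICSI_L2C, 34.7 and 41.2 in SCNT_EGFP_L2C and 46.2 and 44.6 in SCNT_Obox3_L2C, with the 3 groups apart. Ezh1 was at 17.7 and 21.7, 9.81 and 14.3, and 15.9 and 17.6 TPM. Mtf2 was at 52.9 and 58.6, 29.1 and 38.0, and 45.9 and 45.3 TPM, and Pcgf6 at 33.9 and 28.4, 12 and 18.8, and 20.0 and 25.7 TPM. For these 4 genes the SCNT_Obox3_L2C libraries lay between the other groups without overlap as deposited. After scaling this held for Ezh2 only, since Ezh1 (17.4 and 18.1 against 16.4 and 17.7), Mtf2 (50.1 and 46.4 against 48.8 and 48.0) and Pcgf6 (21.8 and 26.3 against 31.3 and 23.3) overlapped ICSI_L2C. Jarid2 was at 22.7 and 26.9, 18.4 and 19.1, and 22.3 and 17.9 TPM. Of the members tested, only Kdm6b lay below both other groups in both SCNT_Obox3_L2C libraries as deposited. It was at 36.8 and 41.7 TPM there, against 53.8 and 49.6 in ICSI_L2C and 53.4 and 57.6 in SCNT_EGFP_L2C. After scaling Kdm6b overlapped ICSI_L2C as well, at 40.1 and 42.7 against 49.6 and 40.6.

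**Figure D4:**
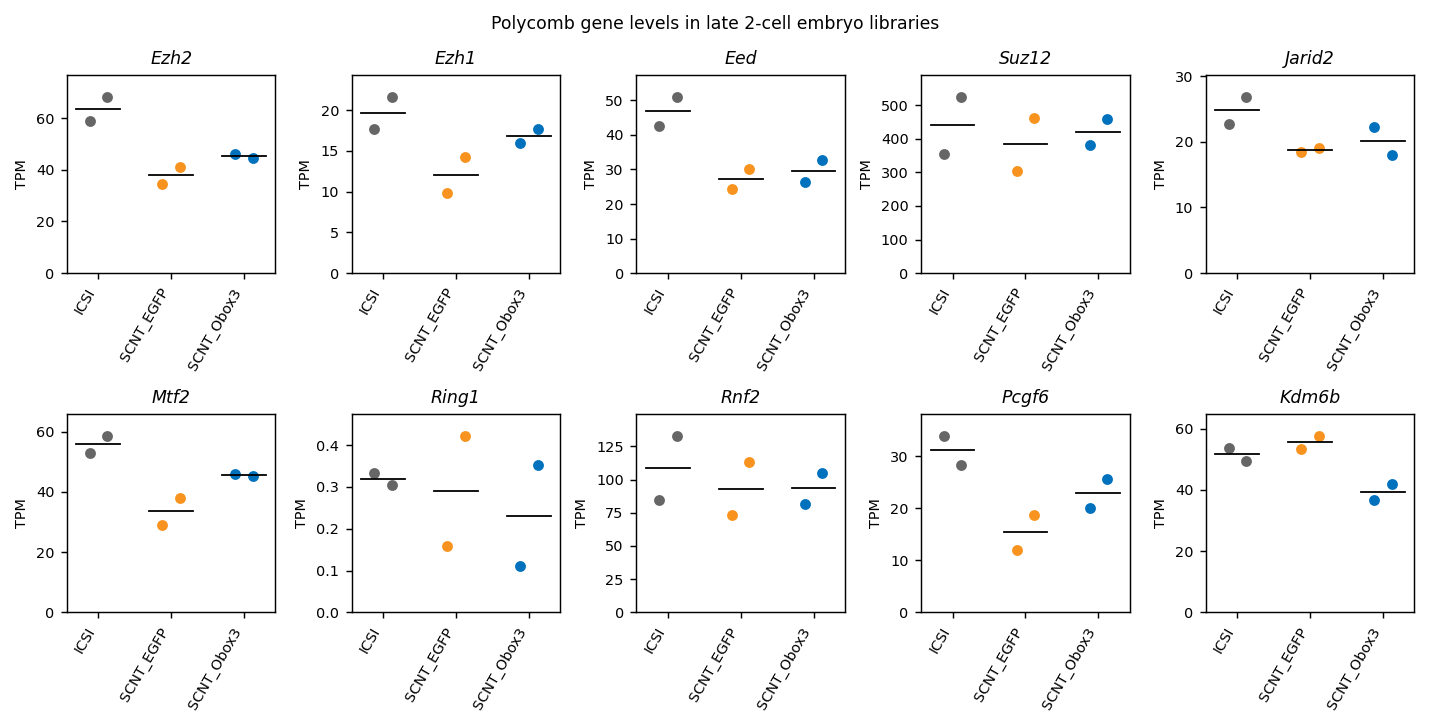
TPM of the 10 Polycomb genes in the late 2-cell embryo libraries, 1 panel a gene, with each vertical axis starting at 0. Circles are libraries and lines are means of the 2 libraries of a group. As deposited, Ezh2, Ezh1, Mtf2 and Pcgf6 are highest in ICSI, lowest in SCNT_EGFP and between in SCNT_Obox3, which holds after scaling for Ezh2 only, while Suz12 and Rnf2 overlap in all groups.

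SCNT_EGFP_L2C was set against ICSI_L2C, a contrast in which nuclear transfer and the injection of EGFP mRNA cannot be told apart. Of the 9 members tested, limma called none, where 17.3% of all genes were called, and 5 had an unadjusted p below 0.05. For 6 of the 9, both SCNT_EGFP_L2C libraries lay below both ICSI_L2C libraries, against 40.8% of all genes. The median of the 9 was -0.68 as deposited and -0.40 after scaling, against -0.20 and 0.04 for all genes. By adjusted p alone, 4 were lower, against 17.6% of all genes. They were Pcgf6 (-1.0, SE 0.255, adjusted p = 0.0347), Eed (-0.76, SE 0.202, adjusted p = 0.0389), Ezh2 (-0.73, SE 0.172, adjusted p = 0.0266) and Mtf2 (-0.73, SE 0.185, adjusted p = 0.0344). The fold of Pcgf6 lay just under the minimum, and Pcgf6 was called without SCNT_EGFP_L2C replicate 2. After scaling, Ezh2 alone passed by adjusted p (-0.44, SE 0.115, adjusted p = 0.0434; 12.7% of all genes were lower by this measure). The 6 markers of the 2-cell stage summed to 383 to 560.1 TPM in ICSI_L2C, 113 to 155 in SCNT_EGFP_L2C and 163 to 240.1 in SCNT_Obox3_L2C, and the part of this difference in the members' values was not tested. The 6 oocyte and maternal markers summed to 580.1 to 637 TPM in ICSI_L2C, 446 to 484 in SCNT_EGFP_L2C and 379.7 to 385 in SCNT_Obox3_L2C. How far maternal RNA entered the members' values was not tested. The 8 markers of cumulus cells, the nucleus donors, summed to 0.842 to 2.53 TPM over all embryo libraries, with Ptx3 listed at 0 in each group. The 4 primitive endoderm markers summed to 47.6 to 51.6 TPM in ICSI_L2C, 33.5 to 40.3 in SCNT_EGFP_L2C and 51.8 to 62.2 in SCNT_Obox3_L2C. Only 1 of the 4 reached 1 TPM in each group. The 5 trophoblast markers summed to 2.39 to 3.66, 5.89 to 10.9 and 2.16 to 5.27 TPM in the same order. Of these, 1, 2 and 2 reached 1 TPM, and Cdx2 was listed at 0. The part of both lists in the members' values was not tested either.

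SCNT_Obox3_L2C was set against SCNT_EGFP_L2C to show what injected Obox3 changes. None of the 9 members was called by limma, where 0.153% of all genes were, and 2 had an unadjusted p below 0.05. These were Kdm6b (-0.49, SE 0.161, adjusted p = 0.193) and Mtf2 (0.44, SE 0.185, adjusted p = 0.277). Pcgf6 (0.56, SE 0.255), Ezh1 (0.47, SE 0.226) and Ezh2 (0.26, SE 0.172) were higher without overlap, as was Mtf2, against 25.4% of all genes, and Kdm6b was lower without overlap, against 26.0%. The median of the 9 was 0.15 as deposited and 0.13 after scaling, against -0.03 and -0.05 for all genes, and none was called after scaling. Obox3 itself stood at 6.74 and 5.02 TPM in SCNT_Obox3_L2C, 0.470 and 3.22 in SCNT_EGFP_L2C and 78.7 and 64.6 in ICSI_L2C. Its copy Obox3-ps5 was looked up in ES cells only. Whether reads of the injected mRNA were listed under that copy in embryos is therefore not known. Against ICSI_L2C, SCNT_Obox3_L2C also had no member called, where 9.11% of all genes were, and 3 with an unadjusted p below 0.05: Eed (-0.65, SE 0.202, adjusted p = 0.0845), Ezh2 (-0.48, SE 0.172, adjusted p = 0.123) and Kdm6b (-0.39, SE 0.161, adjusted p = 0.162). Both libraries lay below both ICSI_L2C libraries for 7 of the 9 as deposited, against 41.9% of all genes, and for 2 of the 9 after scaling, against 28.6%. After scaling none was called, and the median of the 9 went from -0.29 to -0.02, against -0.22 and 0.00 for all genes. The embryo comparisons share groups, and their values are given side by side for that reason.

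Of the other Polycomb genes, 35 were tested in embryos. In SCNT_EGFP_L2C against ICSI_L2C, 3 were called higher (4.80% of all genes) and 5 lower (12.5%), and after scaling 4 higher (6.91%) and 2 lower (7.86%). Cbx8, a chromodomain subunit of canonical PRC1 (1.12, SE 0.301), and E2f6, a repressor in variant PRC1 (1.23, SE 0.338), were among those that rose in SCNT_EGFP_L2C. AU022751, which encodes EZHIP, an inhibitor of PRC2 found in germ cells, was the member of the list with the largest fall, from 310 ± 23.4 to 72.3 ± 18.0 TPM (-2.10, SE 0.209, adjusted p = 0.00257). It was at 69.6 ± 2.48 TPM in SCNT_Obox3_L2C (-2.14 against ICSI_L2C, SE 0.209, adjusted p = 0.00694), and both calls held after scaling, at -1.80 and -1.86. Pcgf1, the defining subunit of the KDM2B-bearing PRC1, fell from 68.7 ± 3.80 to 27.9 ± 6.68 TPM (-1.29, SE 0.211) and L3mbtl2, a partner of PCGF6, from 40.0 ± 0.827 to 16.4 ± 1.77 TPM (-1.24, SE 0.210). After scaling these 2 stood at -1.0 and -0.95 and missed the fold minimum, with adjusted p = 0.00849 and 0.0143. Uty, the Y-linked relative of Kdm6a, was at 1.76 ± 0.702 TPM in ICSI_L2C and listed at 0 in both SCNT groups, whose cumulus nuclei come from females. In SCNT_Obox3_L2C against SCNT_EGFP_L2C, none of the 35 was called. Among the 8 targets tested, Msx1, which passed the level filter only through ICSI_L2C, was called lower in SCNT_Obox3_L2C against ICSI_L2C (-1.34; 6.31% of all genes) and was not called after scaling.

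The ES and embryo tables were normalised separately, so their levels are not compared, but ratios within libraries can be set side by side. Rnf2 was 4.05 to 17.4 times Ring1 over the 19 ES libraries and 254 to 738 times over the 6 embryo libraries, where Ring1 rested on few reads. Suz12 was 0.779 to 2.14 times Eed in ES cells and 8.32 to 15.4 times in embryos, and 1.33 to 5.70 and 6.02 to 11.3 times Ezh2. None of these 3 ranges overlapped. Ezh2 was 2.53 to 3.54 times Ezh1 in embryos, a range that only the ES_Obox3 and ES_Obox6 libraries shared among ES cells. Jarid2 was 0.714 to 1.33 times Mtf2 in ES cells and 0.396 to 0.633 times in embryos. Ezh2 was 0.650 and 0.715 times Kdm6b in SCNT_EGFP_L2C, against 1.10 to 1.38 in ICSI_L2C and 1.07 to 1.26 in SCNT_Obox3_L2C.

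**Figure D5:**
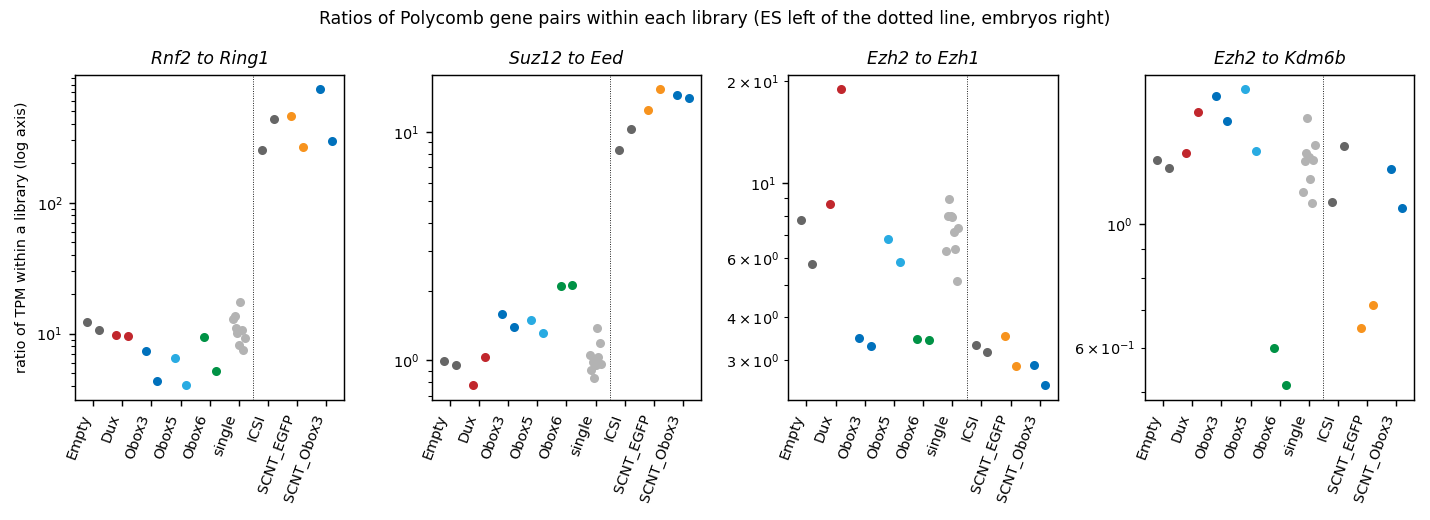
Ratio of TPM of 4 gene pairs within each library, on log axes, by group, with ES libraries left of the dotted line and embryo libraries right of it. Rnf2 to Ring1 and Suz12 to Eed separate the embryos from all ES libraries, Ezh2 to Ezh1 is low in ES_Obox3, ES_Obox6 and embryos, and Ezh2 to Kdm6b is lowest in ES_Obox6 and SCNT_EGFP_L2C.

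Across the 19 ES libraries, which share plasmid groups, the closest pair of members was Suz12 and Jarid2 (Pearson r = 0.915 of log2(TPM + 1) after scaling), followed by Suz12 and Mtf2 (0.822) and Jarid2 and Mtf2 (0.794). Ezh2 ran against them, with -0.585 against Mtf2 and -0.455 against Jarid2. Of 8204 genes at 5 TPM or more in at least 10 libraries, those most like Suz12 were Slmap (0.968), Zfp638 (0.957) and Sphk2 (0.945), all above Jarid2, and those most like Jarid2 were Etl4 (0.946), Fam102a (0.919) and Suz12. Those most like Pcgf6 were Bag5 (0.892), Cdk2 (0.883) and Taf1 (0.880), and those most like Kdm6b were Smtn (0.906), Peg3 (0.898) and Whamm (0.879). The genes most like Ezh2 reached lower values, with Gm45886 (0.771), Gsr (0.765) and Fkbp5 (0.761). For Eed, Mtf2 and Rnf2 the closest genes were Plekhf2 (0.918), Kif20a (0.923) and Gm17080 (0.898). Ezh1 and Ring1 were below the level filter. These are descriptions of the 19 libraries, in which the replicated groups weigh most.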

How the data were processed

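RNA-seq of total RNA was read from 2 tables of the authors, for ES cells and for embryos, holding TPM per gene as deposited, per the file headers. HISAT2, Trim Galore and featureCounts 1.6.5 stand among the tools in the submitters' processing notes, while no source used here names the annotation or strand setting. Read depth is not given with TPM, and the value of 1 read on a gene of 1 kb, estimated from the steps between low values, was 0.136 to 0.441 TPM in ES libraries and 0.0718 to 0.198 in embryos, which limits Ring1 and Ezh1 most. Genes at 1 TPM or more in at least 2 libraries were tested on log2(TPM + 1) with limma 3.58.1 (R 4.3.3, statmod 1.5.0), moderated robustly with a trend in the variance, and p-values were adjusted over all genes by Benjamini-Hochberg. The fit of the 5 replicated ES groups had 5 residual and 3.71 prior degrees of freedom, and that of the 3 embryo groups 3 and 3.48. The filter used TPM as deposited on both scales.

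All 10 members were named in every comparison. Other Polycomb genes and targets were named where called, with at most the 4 largest changes in each direction, and the 3 genes most like a member for Ezh2, Ezh1, Jarid2, Pcgf6 and Kdm6b. Likeness was computed for every member that passed its level filter, and the genes named for Suz12, Eed, Mtf2 and Rnf2 were added after their values were seen. The members and lists were chosen with earlier results of these data known. One library each of ES_Dux, ES_Obox3 and ES_Obox5 is called unnumbered because its column's number matched no label. Simulated data with 200 genes changed by a log2 fold of 1.5 gave back 66% of them in ES_Dux against ES_Empty (18784 genes). For SCNT_EGFP_L2C against ICSI_L2C (17833 genes) it was 44%. In these 2 comparisons, 9 and 3 unchanged genes were called. The changed genes lay well above the level filter in every library, unlike Ring1, and unlike Ezh1 and Pcgf6 in ES_Dux. As deposited, the median over all genes stood at -0.97 in ES_Dux against ES_Empty and at -0.20 in SCNT_EGFP_L2C against ICSI_L2C. How many genes are recovered or wrongly called under such a shift was not tested. Alternatives were pseudocounts of 0.1 and 0.5, no level filter, no fold minimum and median-ratio scaling. Others left out the 10 most abundant genes of each library before rescaling, or left out each library in turn. A replicate block was fitted to the numbered libraries alone. The 63 other samples were not analysed here, and 1 gene of the list of other Polycomb genes is not reported here.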

Additional observations from a re-analysis of the deposited data

Results flagged for a closer look

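In the direct contrast of ES_Obox3 with ES_Dux, 6 members were called higher, where 20.3% of all genes were. Their log2 differences were 2.18 for Suz12, 1.69 for Pcgf6, 1.61 for Ezh1, 1.57 for Jarid2, 1.47 for Eed and 1.47 for Mtf2. After median-ratio scaling, Suz12, Ezh1 and Pcgf6 were still called, against 9.47% of all genes. In ES_Obox6 against ES_Obox3, a contrast chosen after seeing the data, Kdm6b differed by 1.47 as deposited and by 1.10 after scaling. Of all genes, 6.61% and 3.20% were called higher there.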

How the results depend on the processing

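The counts of members called rested on the scale of the table. With median-ratio scaling the count went from 9 to 0 in ES_Dux, from 2 to 0 in ES_Obox3 and from 6 to 3 in ES_Obox3 against ES_Dux, and without the most abundant genes it went to 0 in ES_Obox3. Scaling with no fold minimum was chosen after seeing the data. It gave 7 in ES_Obox3 (24.6% of all genes), 2 in ES_Obox5 (18.4%) and 5 in ES_Obox6 (9.66%). It gave 1 in SCNT_EGFP_L2C against ICSI_L2C (22.7%). Without scaling, the count in SCNT_EGFP_L2C against ICSI_L2C was 0, and it was 1 at a pseudocount of 0.1, 1 at 0.5 and 4 with no fold minimum. Leaving out single libraries gave 0 to 3 in ES_Obox3, with 0 without ES_Empty replicate 1 and without the unnumbered ES_Obox3 library. It gave 0 to 1 in SCNT_EGFP_L2C against ICSI_L2C, with 1 without SCNT_EGFP_L2C replicate 2, and left the counts of the other comparisons as they were. Over all genes tested, deviations of same-numbered libraries correlated little, at 0.0457 between ES_Empty and ES_Obox6 and at 0.0140 to 0.0666 between embryo groups. A correlation over all genes cannot exclude a shared culture or collection. The replicate block used the numbered libraries alone, which left 1 library each in ES_Dux, ES_Obox3 and ES_Obox5. The block and the loss of a library cannot be told apart there, so its counts, with or without scaling, are not given. Over single members and alternatives, 1188 values kept direction and side of the threshold, 24 lost the call, 14 gained one and 52 changed sign. The cause was not tested. This tally includes the replicate block, and many values in it could not change sign. Leaving out a library of a group outside the comparison keeps the difference as it was, as does dropping the fold minimum. The tally is therefore no measure of stability.

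Signs changed with scaling for Eed (0.044), Jarid2 (0.25), Mtf2 (0.41), Ring1 (0.27) and Pcgf6 (0.42) in ES_Obox3, for Ezh1 (0.055), Eed (0.0052) and Jarid2 (0.0845) in ES_Obox5 and for Ring1 (0.10) in ES_Obox6. They changed too for Ezh2 (-0.0581), Rnf2 (-0.11) and Kdm6b (-0.19) in ES_Obox3 against ES_Dux, for Suz12 (0.098) and Rnf2 (0.0794) in SCNT_EGFP_L2C against ICSI_L2C, and for Ezh1 (0.053), Suz12 (0.23) and Rnf2 (0.0854) in SCNT_Obox3_L2C against ICSI_L2C. Without the most abundant genes they changed for Jarid2 (0.12), Mtf2 (0.28), Ring1 (0.25) and Pcgf6 (0.33) in ES_Obox3 and for Suz12 (0.30), Jarid2 (0.11) and Rnf2 (0.28) in SCNT_EGFP_L2C against ICSI_L2C. The same setting changed Eed (-0.0296), Jarid2 (-0.0504) and Rnf2 (-0.12) in SCNT_Obox3_L2C against SCNT_EGFP_L2C, and Ezh1 (0.14), Suz12 (0.32), Jarid2 (0.0587), Mtf2 (0.0766) and Rnf2 (0.17) in SCNT_Obox3_L2C against ICSI_L2C. Leaving out single libraries gave -0.0792 to 0.41 for Ezh1, -0.52 to 0.10 for Mtf2, -0.39 to 0.10 for Pcgf6 and -0.37 to 0.42 for Suz12 in ES_Obox3, and -0.16 to 0.0638 for Ring1 in ES_Obox6. It gave -0.54 to 0.10 for Rnf2 and -0.51 to 0.10 for Suz12 in SCNT_EGFP_L2C against ICSI_L2C, and -0.52 to 0.13 for Rnf2 and -0.33 to 0.24 for Suz12 in SCNT_Obox3_L2C against ICSI_L2C. Between the SCNT groups it gave -0.0405 to 0.26 for Eed, -0.0613 to 0.24 for Jarid2, -0.29 to 0.34 for Rnf2 and -0.15 to 0.46 for Suz12. With 2 libraries a group, a lone library left in a group was assumed to vary like the others.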
